A study of Mus musculus with 84 samples.

Results

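Transcripts of 6 lipid droplet proteins, the CIDE proteins Cidea, Cideb and Cidec and the perilipins Plin, Adfp and S3-12, were described in the liver and inguinal adipose tissue (IAT) of db/db mice given rosiglitazone (RSG) or a second compound known only as the S compound. They were picked by the gene names printed in the scanner files, where Plin stands for the current symbol Plin1, Adfp for Plin2 and S3-12 for Plin4. Each name was carried by 1 sequence, so the members were 6 of the 41174 sequences on the array. All 6 were among the 25252 sequences tested in liver and the 30792 tested in IAT. Plin in liver passed the filter on dim spots only through the S compound groups at 84 and 280 µmol/kg, and Cideb in IAT only through the pool channel.

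Lipid droplets store triglyceride behind a phospholipid monolayer that carries a set of bound proteins. Perilipins coat the droplet and govern how lipases reach it. Perilipin 1 belongs to the adipocyte, perilipin 2 is found in most cells that hold lipid, and perilipin 4 coats small nascent droplets in adipose tissue and muscle. The CIDE proteins Cidea and Cidec gather where droplets touch and pass lipid from the smaller to the larger one. Cidea is typical of brown fat and Cidec (also called Fsp27) of white fat, and both are also known from fatty liver, while Cideb is a hepatocyte protein of droplets and lipoprotein assembly. PPARγ, the nuclear receptor that RSG activates, is known to drive several of these genes in fat.

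The samples fall into 12 groups of 6, from 2 tissues and 6 treatments of male db/db mice (strain BKS Cg-m+/+ Leprdb/J, which carries the leptin receptor mutation db and becomes obese and diabetic), obtained at 8 weeks of age. The mice received RSG or the S compound by mouth at 28, 84 or 280 µmol/kg for 18 days. Per the methods, which describe the RSG mice, liver and IAT were taken from the same animals, but the labels do not tie a liver sample to an IAT sample. All groups and their controls share the db/db mutation. The reference for each tissue was RNA pooled from 6 untreated animals of this strain, and every sample was hybridised with it on 2 two-colour arrays with the dyes exchanged. Values are log2 ratios of mouse over pool, averaged over both arrays. The pool is 1 control sample that all groups of a tissue share, so the spread between untreated mice entered no test and comparisons against the pool are not independent of each other. A further 12 liver samples were technical repeats, 6 per compound at 28 µmol/kg. A member was called when its p from limma, adjusted over every sequence tested in the tissue, was below 0.05. In these bulk tissues, fewer cells of a type and less RNA per cell cannot be told apart.

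The start-site sequences of Cidec, Plin2 and Plin4 are shown because Cidec and Plin2 rose in both tissues, while Plin4 rose in liver and fell in IAT. Each spans 250 bases before to 50 after the RefSeq start (GRCm38.p6), on the minus strand, with the upstream of the listed starts for Cidec: chr6:113435711-113436010 for Cidec, chr4:86670010-86670309 for Plin2 and chr17:56109733-56110032 for Plin4. PPAR and RXR pairs bind 2 copies of AGGTCA that lie 1 base apart, and capitals mark AGGTCA read on the opposite strand, as TGACCT.
Cidec: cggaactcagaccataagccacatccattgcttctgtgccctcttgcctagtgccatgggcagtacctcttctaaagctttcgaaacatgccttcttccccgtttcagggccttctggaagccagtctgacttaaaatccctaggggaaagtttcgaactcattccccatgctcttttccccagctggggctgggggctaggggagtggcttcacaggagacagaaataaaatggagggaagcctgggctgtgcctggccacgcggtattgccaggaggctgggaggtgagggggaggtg
Plin2: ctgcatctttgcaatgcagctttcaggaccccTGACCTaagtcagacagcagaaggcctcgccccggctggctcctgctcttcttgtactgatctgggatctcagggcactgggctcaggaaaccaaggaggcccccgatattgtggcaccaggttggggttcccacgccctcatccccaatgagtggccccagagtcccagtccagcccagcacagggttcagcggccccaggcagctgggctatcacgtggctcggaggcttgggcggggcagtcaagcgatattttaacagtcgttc
Plin4: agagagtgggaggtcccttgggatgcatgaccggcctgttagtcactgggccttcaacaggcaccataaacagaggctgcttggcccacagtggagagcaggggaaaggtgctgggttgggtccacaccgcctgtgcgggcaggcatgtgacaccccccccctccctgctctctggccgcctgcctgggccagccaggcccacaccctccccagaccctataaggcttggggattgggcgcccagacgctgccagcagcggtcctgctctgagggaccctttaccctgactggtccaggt
AGGTCA, searched on both strands, occurred in 5340 of 32851 mouse promoters of this length (16.3%). Among the members in the table it was found once, in Plin2, at base -218 from the start. The promoters of Cideb, Cidec, Plin1 and Plin4 held none, and of the 2 remaining perilipins Plin5 held it and Plin3 did not. The 2 adjoining copies occurred in 13 promoters (0.0396%) and in no member listed. These are matches of letters in a short window, and a missing match says nothing about binding elsewhere. Cidea had no entry.

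Both tissues carried their own markers. All 16 hepatocyte markers on the array, Alb among them, were well above background on all 72 liver arrays, as were all 14 white adipocyte markers, Adipoq and Lep among them, on all 72 IAT arrays. Detection alone did not separate the tissues. In the mouse channel Alb was also well above background on all 72 IAT arrays, and Cfd, Fabp4 and Lpl on all 72 liver arrays. Others differed, with Ttr on 1 IAT array and Lep on 0 liver arrays. The share of spots well above background in the mouse channel was 43.4% to 65.8% in liver and 61.8% to 78.2% in IAT, and the arrays of a dye pair correlated between 0.632 and 0.944. By their correlation with the rest of their group, 5 mice stood apart: Liver RSG 280 replicate 2, IAT RSG 28 replicates 3 and 5, IAT RSG 280 replicate 2 and IAT S 28 replicate 4. The 12 groups spread unevenly over 6 scan days in each tissue, and the tissues shared no day.

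Cidea and Cidec were far above the pool in the liver of every treated group. Adfp and S3-12 were also above it there, with group means from 0.95 to 1.72 and from 1.25 to 3.26. Plin stayed near the pool in liver and Cideb was slightly below it. In IAT, Cidea, Cidec and Adfp were above the pool and S3-12 and Cideb below it. Against the pool, 5 of the 6 members were called in liver at each dose of RSG, where 59.4%, 57.7% and 51.9% of all sequences were called at 28, 84 and 280 µmol/kg. With the S compound 4, 4 and 6 members were called in liver, against 52.2%, 55.3% and 66.9% of all sequences. In IAT 5 members were called at each RSG dose, where the background was 47%, 65.7% and 67%. With the S compound 5, 5 and 6 were called in IAT, against 47.6%, 55.7% and 74.7%. With a background this high, the number of members called tells little, and the sizes of the changes are given below. The counts also include Cideb in IAT, which passed the filter only through the pool. They include Plin in Liver S 280 as well, which passed it only through S compound groups.

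**Figure D1:**
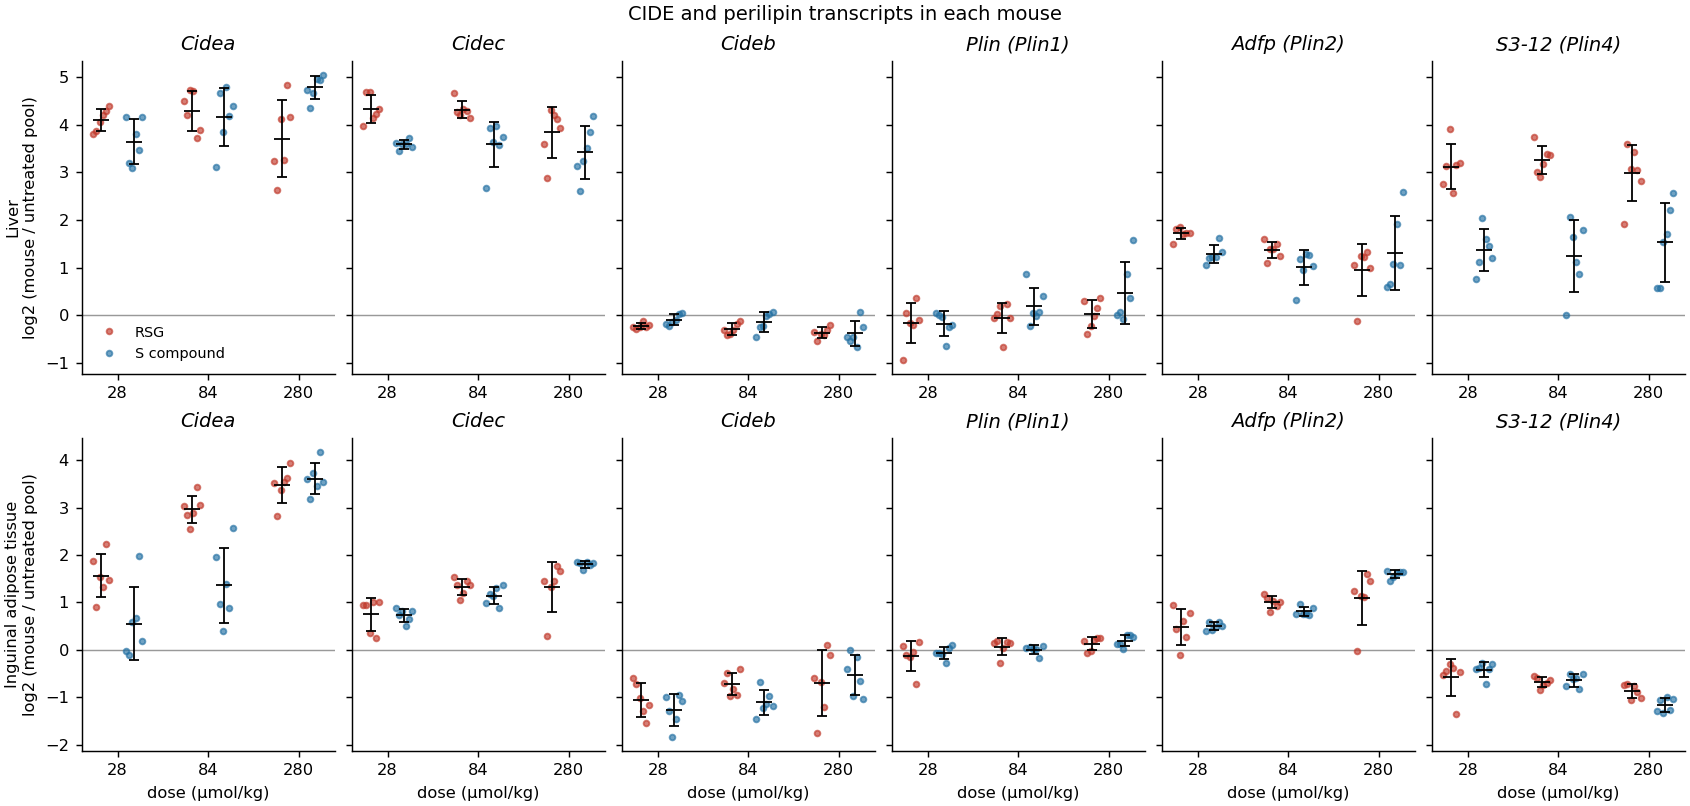
Log2 ratio of each mouse over the untreated pool (y axis) by dose in µmol/kg (x axis) for the 6 genes, with liver above and IAT below. Each point is 1 mouse, red for RSG and blue for the S compound, and bars give the mean and SD of 6 mice. S3-12 lies above 0 in liver and below 0 in IAT in every mouse, and liver Cidea and Cidec exceed 2.6 in every mouse. Plin in liver and Cideb in IAT were at or near background on most arrays.

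Cidea, the CIDE protein of brown fat, was probed at chr18:67493066-67493125 (plus strand, mm8, the build of the scanner files). In liver its log2 ratio with RSG was lowest at 3.80, median 4.14 and highest at 4.40 at 28 µmol/kg, and 2.62, 3.70 and 4.84 at 280. With the S compound these values were 3.09, 3.64 and 4.16 at 28 µmol/kg and 4.36, 4.83 and 5.04 at 280. Every mouse of both compounds lay above the pool. The mean was 4.10 ± 0.24 (SD, n = 6) at 28 µmol/kg RSG, a 17.2-fold rise (adjusted p = 2.67e-17), and 4.78 ± 0.25 at 280 µmol/kg of the S compound, a 27.5-fold rise (adjusted p = 1.72e-19). At 84 µmol/kg the means were 4.29 ± 0.42 with RSG and 4.16 ± 0.61 with the S compound.

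In IAT the rise of Cidea was small at the lowest dose and graded. RSG gave means of 1.56 ± 0.46, 2.96 ± 0.29 and 3.47 ± 0.37 (SD, n = 6) at 28, 84 and 280 µmol/kg, and the S compound 0.55 ± 0.77, 1.36 ± 0.79 and 3.61 ± 0.33. At 280 µmol/kg the lowest, median and highest mice were 2.82, 3.54 and 3.95 with RSG and 3.17, 3.57 and 4.17 with the S compound, rises of 11.1-fold (adjusted p = 4.38e-15) and 12.2-fold (adjusted p = 9.52e-16). At 28 µmol/kg of the S compound the mice ran from -0.11 to 1.98 with a median of 0.39, and 4 of 6 lay above the pool. That last rise was called (adjusted p = 0.0349), but it rested on single mice. Without IAT S 28 replicate 5 it was 0.26 (adjusted p = 0.299), without replicate 3 it was 0.54 (adjusted p = 0.0659), and without replicate 4 it was 0.53 (adjusted p = 0.0705). Once scan day entered as a block, the S compound no longer passed at 28 µmol/kg (0.21, adjusted p = 0.663) or at 84 (0.48, adjusted p = 0.495).

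Cidec, the droplet fusion protein of white fat, was probed at chr6:113390476-113390535 (minus strand, mm8). In liver the lowest, median and highest mice were 3.97, 4.27 and 4.69 at 28 µmol/kg RSG, 4.14, 4.28 and 4.66 at 84, and 2.89, 4.03 and 4.32 at 280. With the S compound they were 3.45, 3.60 and 3.72 at 28 µmol/kg, 2.66, 3.69 and 3.97 at 84, and 2.62, 3.38 and 4.18 at 280. All 36 livers lay at least 2.62 above the pool, and the RSG and S compound mice did not overlap at 28 and 84 µmol/kg. Cidec was not among the 0.915% and 1.86% of all sequences called between the compounds there (adjusted p = 0.0963 and 0.0854 in limma). How many of all sequences showed no overlap is not given here. The mean rise was 20.2-fold at 28 µmol/kg RSG (4.34 ± 0.29, SD, n = 6, adjusted p = 1.7e-20) and 10.7-fold at 280 µmol/kg of the S compound (3.42 ± 0.55, adjusted p = 1.53e-18).

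In IAT the ratios of Cidec were smaller. Means were 0.75 ± 0.35, 1.33 ± 0.18 and 1.32 ± 0.53 (SD, n = 6) at 28, 84 and 280 µmol/kg RSG and 0.73 ± 0.14, 1.14 ± 0.18 and 1.80 ± 0.07 with the S compound, all called. At 280 µmol/kg the mice ran from 0.29 to 1.77 with RSG and from 1.67 to 1.86 with the S compound, and the 0.29 belonged to replicate 2, which stood apart. The mouse channel was saturated on 36 of 72 IAT arrays, namely all those with the pool in Cy3. These arrays alone gave group means of 0.83 to 2.02, and the arrays with the pool in Cy5, where no mouse channel was saturated, 0.64 to 1.59.

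Cideb, the hepatocyte member, was probed at chr14:54709221-54709280 (minus strand, mm8) and moved little in liver. Its means were -0.22 ± 0.06, -0.29 ± 0.12 and -0.37 ± 0.11 (SD, n = 6) at 28, 84 and 280 µmol/kg RSG, and all 18 RSG mice lay below the pool. At 280 µmol/kg RSG it fell by 22.5% (adjusted p = 1.39e-05), and at the same dose of the S compound it fell by 23.3% (-0.38 ± 0.26, adjusted p = 3.47e-06). At 28 and 84 µmol/kg of the S compound the means were -0.09 ± 0.11 and -0.14 ± 0.20 and were not called (adjusted p = 0.221 and 0.0584). The value at 84 passed without replicate 4 (-0.17, adjusted p = 0.0479), replicate 5 (-0.18, adjusted p = 0.0332) or replicate 6 (-0.19, adjusted p = 0.0232). Of 16 hepatocyte markers in these livers 8 were lower and 4 higher at 280 µmol/kg RSG, and 13 lower and 2 higher with the S compound. There 51.9% and 66.9% of all sequences were called. The mean log2 ratio of these markers per mouse ran from -0.33 to -0.01 and from -0.86 to -0.44. Their part in the values of Cideb was not tested. In IAT Cideb was near background, and the mouse channel was well above it on 11 of 72 arrays and the pool on 58. It was called lower in all 6 IAT groups, but it passed the filter there only through the pool channel. The filter thus favoured values below the pool, and these calls are no separate evidence of a fall. In IAT RSG 84 and IAT S 28 Cideb was well above background on no mouse array, and on 9 and 4 of 12 pool channels. No lower bound on a fall can be set in these groups.

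Plin, the adipocyte perilipin that guards the droplet against lipases, was probed at chr7:79594739-79594798 (minus strand, mm8). It was well above background on 23 of 72 mouse channels and 29 of 72 pool channels in liver, and on all of them in IAT. In liver only the S compound at 280 µmol/kg was called, at 0.46 ± 0.65 (SD, n = 6, adjusted p = 0.0127), with mice from -0.09 to 1.59 and a median of 0.21. Without Liver S 280 replicate 6 the value was 0.24 (adjusted p = 0.169), without replicate 4 it was 0.38 (adjusted p = 0.0593), and with scan day as a block its adjusted p was 0.104. The SD of 6 technical repeats was 0.43 for RSG and 0.23 for the S compound, next to 0.43 and 0.26 between mice. In IAT the group means ran from -0.13 to 0.20. The S compound at 280 µmol/kg was called at 0.20 ± 0.13, a rise of 14.6% seen in 6 of 6 mice (adjusted p = 0.015). This call was lost without IAT S 280 replicate 4 (0.17, adjusted p = 0.0515), without replicate 5 (0.17, adjusted p = 0.0527) and after centring each array on its median (0.13, adjusted p = 0.0559).

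Adfp (Plin2), the perilipin of most lipid-laden cells, was probed at chr4:86128003-86128062 (minus strand, mm8). In liver the lowest, median and highest mice were 1.49, 1.72 and 1.85 at 28 µmol/kg RSG, 1.10, 1.40 and 1.59 at 84, and -0.13, 1.13 and 1.33 at 280. The -0.13 was again Liver RSG 280 replicate 2. Means were 1.72 ± 0.12, 1.37 ± 0.18 and 0.95 ± 0.54 (SD, n = 6) with RSG and 1.28 ± 0.19, 1.00 ± 0.36 and 1.31 ± 0.78 with the S compound, rises of 1.93-fold to 3.29-fold that were all called. In IAT the means were 0.49 ± 0.38, 1.01 ± 0.13 and 1.09 ± 0.57 with RSG and 0.50 ± 0.08, 0.81 ± 0.09 and 1.59 ± 0.09 with the S compound. All 6 were called, from 1.40-fold at 28 µmol/kg RSG (adjusted p = 0.000943) to 3.01-fold at 280 µmol/kg of the S compound (adjusted p = 1.4e-13). The RSG value at 28 µmol/kg was no longer called with scan day as a block (0.45, adjusted p = 0.137).

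S3-12 (Plin4), which coats nascent droplets, was probed at chr17:55693925-55693984 (minus strand, mm8) and moved in opposite directions in the tissues. In liver the lowest, median and highest mice were 2.56, 3.14 and 3.92 at 28 µmol/kg RSG, 2.91, 3.27 and 3.74 at 84, and 1.91, 3.07 and 3.60 at 280. With the S compound they were 0.76, 1.33 and 2.05 at 28 µmol/kg, 0.01, 1.38 and 2.06 at 84, and 0.56, 1.62 and 2.57 at 280. All 36 livers lay above the pool, and at 28 and 84 µmol/kg each RSG mouse exceeded each S compound mouse. S3-12 was called between the compounds at both doses, as were 0.915% and 1.86% of all sequences. How many of all sequences showed such a separation is not given here. The rise was 8.68-, 9.59- and 7.91-fold with RSG and 2.58-, 2.37- and 2.89-fold with the S compound, with adjusted p from 2.65e-13 to 3.45e-05.

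In IAT all 36 mice lay below the pool for S3-12. RSG gave means of -0.58 ± 0.38, -0.68 ± 0.11 and -0.86 ± 0.14 (SD, n = 6) at 28, 84 and 280 µmol/kg, and the S compound -0.42 ± 0.16, -0.64 ± 0.14 and -1.16 ± 0.15. At 280 µmol/kg the mice ran from -1.05 to -0.73 with RSG and from -1.33 to -0.99 with the S compound. S3-12 fell by 45.1% with RSG (adjusted p = 7.28e-11) and fell by 55.3% with the S compound (adjusted p = 4.88e-14).

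The comparison of RSG with the S compound at the same molar dose asked whether the members answered both alike. In liver S3-12 was called at all 3 doses, Cidea at 280 µmol/kg alone, and no other member at any dose. The members called were 1, 1 and 2 of 6, where 0.915%, 1.86% and 28.6% of all sequences were called at 28, 84 and 280 µmol/kg. For S3-12, RSG exceeded the S compound by 1.75 (95% interval 1.08 to 2.43, 3.37-fold, adjusted p = 0.00659), by 2.02 (4.04-fold, adjusted p = 0.000943) and by 1.45 (2.74-fold, adjusted p = 0.00107) at the rising doses. For Cidea at 280 µmol/kg the order was turned, with RSG 2.11-fold lower (difference -1.07, interval -1.65 to -0.50, adjusted p = 0.0041). Of 8 brown adipocyte markers tested in liver, 6 were higher and 2 lower than the pool at this dose of each compound. Ucp1 and Dio2, also on the list, were not tested there. Ucp1 was well above background on 1 of 72 mouse channels and 0 of 72 pool channels, and Dio2 on 19 and 30. At this dose 51.9% and 66.9% of all sequences were called against the pool. The mean of the 8 tested markers per liver was also lower with RSG, at 0.17 to 0.89 (median 0.71). With the S compound it was 1.54 to 1.98 (median 1.59). Its part in the difference of Cidea was not tested.

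Scan days differed between the compounds. In liver the groups at 28 and at 84 µmol/kg shared no day, and those at 280 shared 1, with 2 mice of each compound. With scan day as a block the S3-12 differences were 1.08, 1.42 and 0.98 (adjusted p = 0.686, 0.524 and 0.234). That of Cidea at 280 µmol/kg was -0.43 (adjusted p = 0.487), so the calls were lost. This block left 0 of 25252 sequences called at 28 and at 84 µmol/kg, and 3057 at 280. Within the shared day S3-12 was 2.94 with RSG and 2.39 with the S compound, a difference of 0.54, and the difference of Cidea was -0.49. Skeletal muscle markers were below the pool in liver, 13 of 14 at 280 µmol/kg of each compound. There 51.9% and 66.9% of all sequences were called against the pool. The mean log2 ratio of these markers per mouse ran from -1.64 to -0.21 with RSG and from -1.78 to -1.40 with the S compound. Myl1 and Ckmt2 were well above background on 3 of 72 mouse channels each, against 67 and 61 pool channels. Such genes passed the filter only through the pool, which favoured values below it. The part of the muscle markers in the differences between the compounds was not tested.

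**Figure D2:**
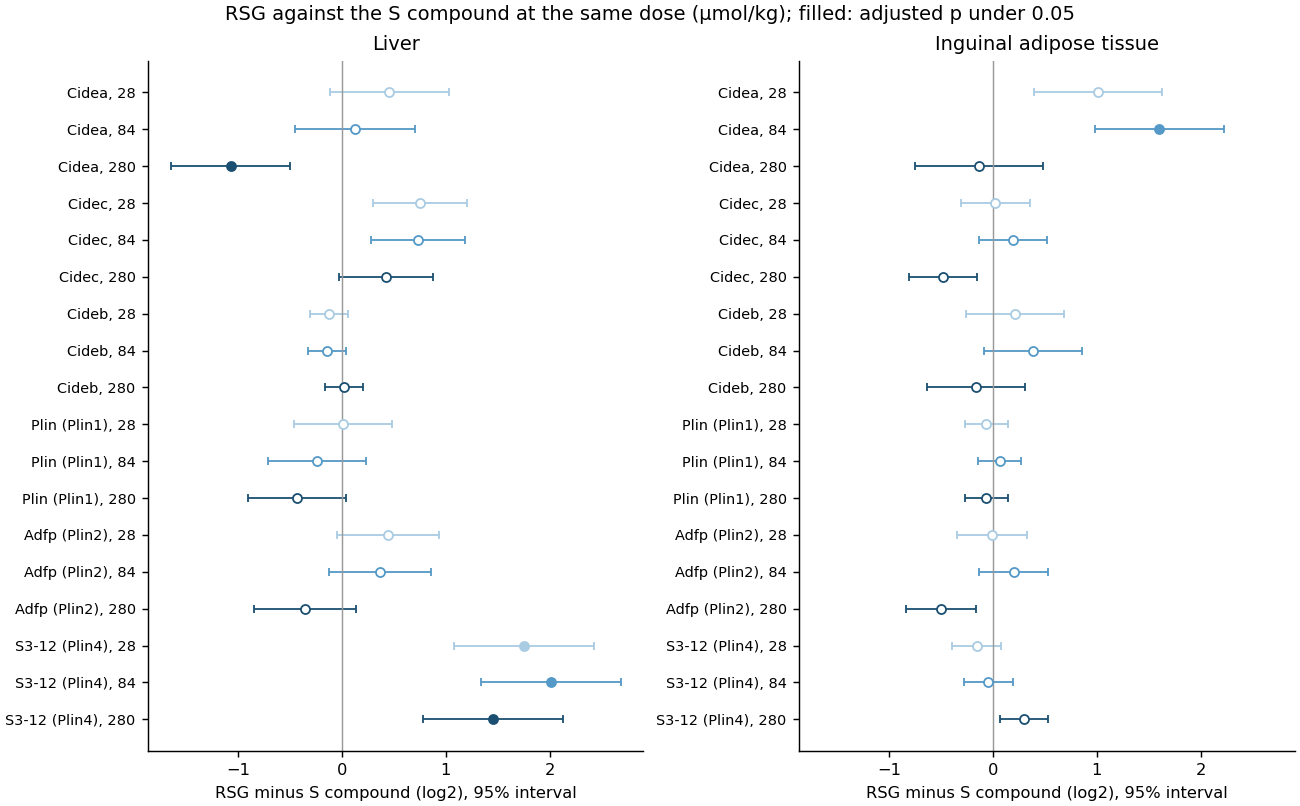
RSG minus S compound in log2 ratio (x axis) for each gene and dose in µmol/kg, liver on the left and IAT on the right, with 95% intervals from limma. Each point is a difference of 2 means of 6 mice, and filled points passed an adjusted p of 0.05. S3-12 in liver passed at all 3 doses, at 1.75, 2.02 and 1.45.

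Cidec in liver leaned to RSG at the lower doses without a call. It differed by 0.75 (interval 0.30 to 1.20, adjusted p = 0.0963) at 28 µmol/kg, by 0.73 (interval 0.27 to 1.18, adjusted p = 0.0854) at 84 and by 0.42 (interval -0.03 to 0.87, adjusted p = 0.161) at 280. Of the 5 samples that stood apart only Liver RSG 280 replicate 2 is from liver, so leaving them out removed no mouse at 28 or 84 µmol/kg. There the differences stayed at 0.75 and 0.73, and only the spread shared by the fit changed (adjusted p = 0.0483 and 0.0414). At 280 the difference became 0.61 (adjusted p = 0.0273). This exclusion was chosen after the data were seen. Intervals for Adfp reached from -0.05 to 0.93 at 28 µmol/kg and from -0.85 to 0.13 at 280, so differences of that size cannot be set aside. Those for Cideb stayed within -0.33 to 0.20 over all 3 doses.

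In IAT Cidea alone was called between the compounds, at 84 µmol/kg, with RSG higher by 1.60 (interval 0.98 to 2.22, 3.04-fold, adjusted p = 0.00374). The RSG mice ran from 2.56 to 3.43 and the S compound mice from 0.39 to 2.58, so the groups overlapped only at their edges. These groups share no day, and with scan day as a block it was 2.69 (adjusted p = 0.295), where 0 of 30792 sequences were called. The members called were 0, 1 and 0 of 6 at 28, 84 and 280 µmol/kg, against 0.0065%, 2.15% and 1.58% of all sequences. At 28 µmol/kg 1 member had an unadjusted p under 0.05 in limma, Cidea, at 1.01 (interval 0.39 to 1.63, adjusted p = 0.851). At 280 µmol/kg 3 had one: Cidec (-0.48, adjusted p = 0.104), Adfp (-0.50, adjusted p = 0.0977) and S3-12 (0.30, adjusted p = 0.148). Those 3 were called with scan day as a random block (adjusted p = 0.027, 0.0203 and 0.0444), and Cidec and Adfp without IAT RSG 280 replicate 5 (-0.57, adjusted p = 0.0426, and -0.60, adjusted p = 0.0368). IAT S 280 had scan days of its own, so day and group cannot be told apart there.

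The effect of dose was read from 280 against 28 µmol/kg. In liver no member was called for RSG, where 0.0119% of all sequences were, although Adfp (-0.77, interval -1.26 to -0.28, adjusted p = 0.144) and Cidec (-0.50, interval -0.95 to -0.04, adjusted p = 0.292), 2 of 6, had an unadjusted p under 0.05. For the S compound 3 were called in liver, against 29.5% of all sequences. Cidea was higher by 1.13 (2.20-fold, adjusted p = 0.00238), Plin higher (0.64, adjusted p = 0.0342) and Cideb lower by 18.1% (-0.29, adjusted p = 0.0145). The mouse channel of Plin was well above background on only 3 of 12 arrays at 28 µmol/kg and 6 of 12 at 280, so the size of its difference is uncertain. With scan day as a block Cidea was 0.71 (adjusted p = 0.335) and Plin 0.79 (adjusted p = 0.234), and Cideb alone stayed called. Without Liver S 280 replicate 4 only Cidea was called, with Cideb at -0.23 (adjusted p = 0.0562) and Plin at 0.56 (adjusted p = 0.0883). Plin was also lost without Liver S 280 replicate 6 (0.41, adjusted p = 0.144) and without Liver S 28 replicate 4, 5 or 6 (adjusted p = 0.0913, 0.0552 and 0.053).

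In IAT 3 members were called between 280 and 28 µmol/kg RSG, against 25.4% of all sequences: Cidea by 1.91 (3.76-fold, adjusted p = 1.62e-05), Cidec by 0.57 (adjusted p = 0.00848) and Adfp by 0.60 (adjusted p = 0.00652). With scan day as a block these were 1.41, 0.54 and 0.77 (adjusted p = 0.164, 0.383 and 0.201). Without IAT RSG 280 replicate 2 all 6 were called, with Cideb at 0.56 (adjusted p = 0.0445), Plin at 0.30 (adjusted p = 0.0316) and S3-12 at -0.31 (adjusted p = 0.0489). S3-12 was also called without IAT RSG 28 replicate 5 (-0.44, adjusted p = 0.000143), and Plin without IAT RSG 28 replicate 1 or 6 or IAT RSG 280 replicate 3 (adjusted p = 0.0328, 0.0217 and 0.0442).

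For the S compound all 6 were called between the doses in IAT, against 43.5% of all sequences. Cidea rose by 3.06 (8.35-fold, adjusted p = 1.87e-09), Cidec by 1.07 (2.10-fold, adjusted p = 2.57e-06) and Adfp by 1.09 (2.13-fold, adjusted p = 2.73e-06), while S3-12 fell by 40.3% (-0.74, adjusted p = 4.11e-06). Plin was higher by 0.26 (adjusted p = 0.0401), a call lost on leaving out any of IAT S 28 replicates 1 to 4 or IAT S 280 replicates 4 to 6 (0.21 to 0.26, adjusted p = 0.0549 to 0.109). Cideb was called higher (adjusted p = 0.0115), but it passed the filter only through the pool. It was not well above background in any mouse array at 28 µmol/kg and was so on 4 of 12 at 280, so its difference is uncertain.

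The tissues were set against each other at 280 µmol/kg, as the difference of the log2 ratios to each tissue's own pool. For RSG the ratios of Cidec (difference -2.52, adjusted p = 2.56e-17) and S3-12 (difference -3.85, adjusted p = 1.32e-20) were lower in IAT, 2 of 6 members where 61.5% of sequences were called. For the S compound Cidea (-1.17, adjusted p = 0.000407), Cidec (-1.62, adjusted p = 8.69e-11) and S3-12 (-2.69, adjusted p = 1.03e-14) were lower in IAT, 3 of 6 members against 73.6%. Adfp was not called for either compound, with differences of 0.14 (interval -0.28 to 0.56) and 0.28 (interval -0.14 to 0.69), the second of them called without Liver S 280 replicate 6 (0.53, adjusted p = 0.0124). Cideb for RSG was -0.34 (adjusted p = 0.0948) and was called without IAT RSG 280 replicate 5 (-0.50, adjusted p = 0.012) or 6 (-0.45, adjusted p = 0.0272). The fit treats liver and IAT samples as separate animals. With samples of the same treatment and number as a block, the same members were called for RSG and for the S compound, with adjusted p from 3.07e-15 to 0.000538. No scan day held both tissues, so day and tissue cannot be told apart. The mouse channel of Cidec was saturated on 36 of 72 IAT arrays and on 0 in liver. The pools also differed in level. Their median log2 signal, normalized within each tissue, was 11.3 in liver and 17.2 in IAT for Cidec, and 11.1 and 18.0 for S3-12. The part of saturation and of these levels in the differences was not tested.

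**Figure D3:**
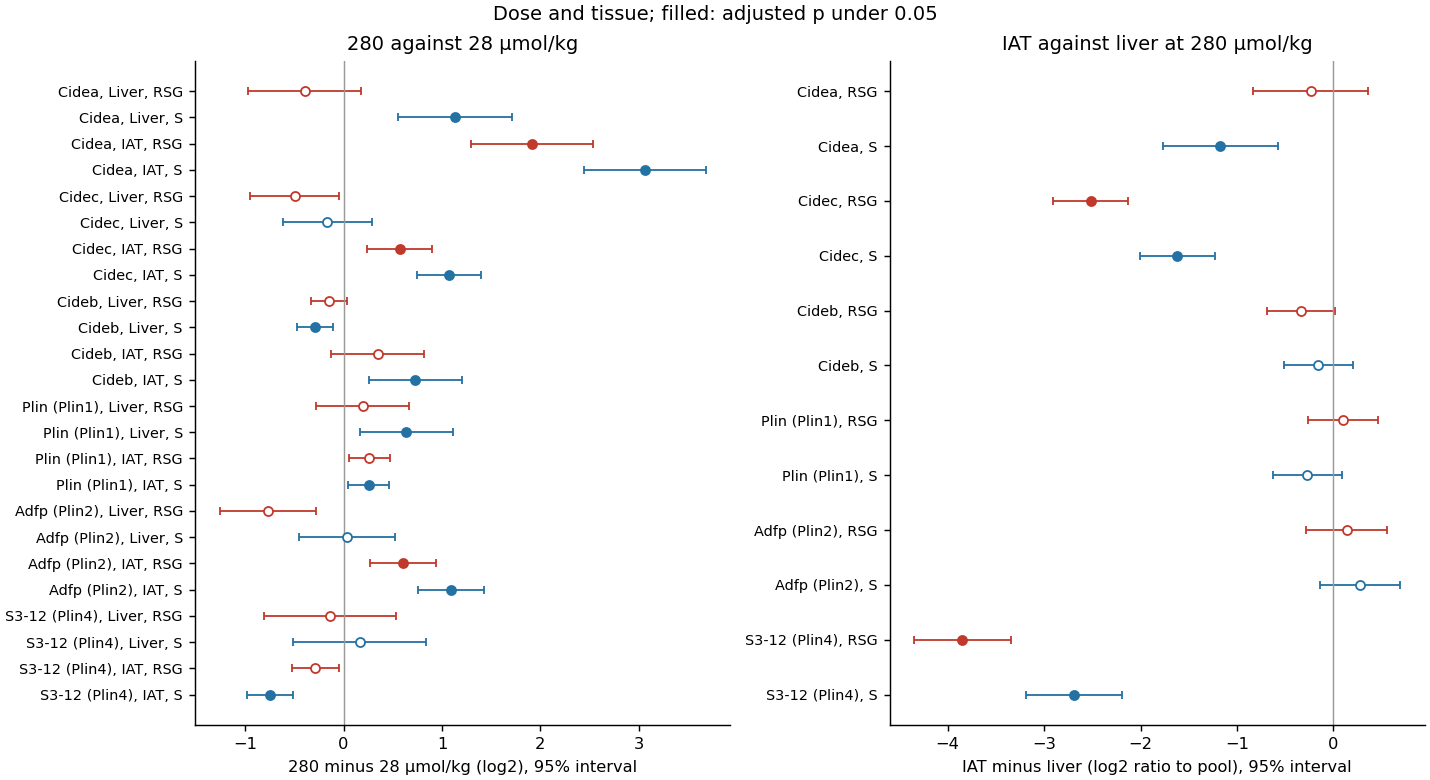
Differences in log2 ratio with 95% intervals from limma, 280 minus 28 µmol/kg on the left and IAT minus liver at 280 µmol/kg on the right, for each gene, red for RSG and blue for the S compound. Filled points passed an adjusted p of 0.05. Cidea in IAT shows the largest dose differences of the 6 genes (1.91 and 3.06), and S3-12 the largest tissue differences (-3.85 and -2.69).

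Across mice Cidec and Adfp moved together. Over the 36 mice of a tissue Pearson's r was 0.704 (rho 0.635) in liver and 0.947 (rho 0.942) in IAT, and 0.81 and 0.856 after the group means were taken out. Cidec and S3-12 had r = 0.762 in liver and -0.49 in IAT, and 0.607 and 0.304 after the group means were taken out. Within IAT groups Plin and S3-12 had r = 0.717, although over all mice r was -0.02. The mice of a tissue share the pool and their arrays differ in quality, so these values are descriptions.

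**Figure D4:**
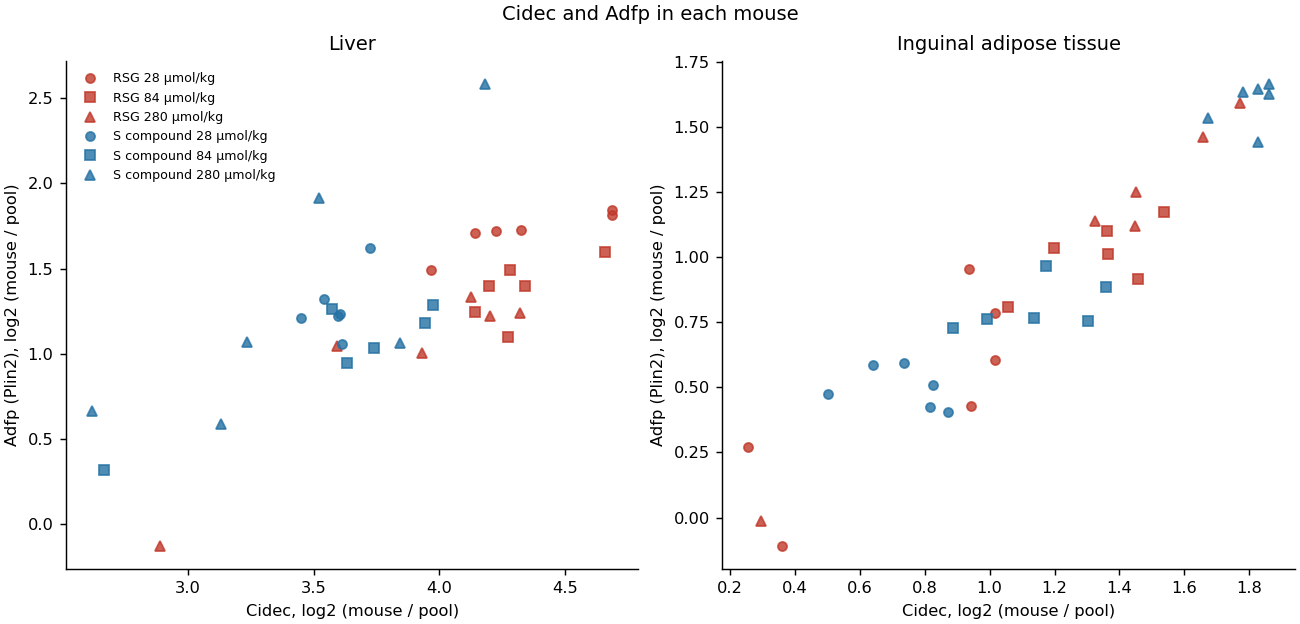
Log2 ratio over the pool of Cidec (x axis) and Adfp (y axis) in each mouse, liver on the left and IAT on the right, red for RSG and blue for the S compound, with circles, squares and triangles for 28, 84 and 280 µmol/kg. In IAT the points follow 1 line (r = 0.947 over 36 mice), with IAT RSG 280 replicate 2 among the 28 µmol/kg mice. In liver the spread is wider (r = 0.704).

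Over 15363 genes in liver, the ones with the pattern most like a member over the 36 mice were Fitm2 (r = 0.918, rho 0.913), Tmem120a and Clstn3 for Cidec, and Tbc1d20 (r = 0.927, rho 0.942), Slc13a4 and D19Wsu12e for S3-12. Fitm2 encodes a protein of droplet formation at the endoplasmic reticulum. Adfp was closest to Nol6 (r = 0.904), H2al1m and Lonp2, Cidea to D5Ertd135e (r = 0.793), Atp9a and Arhgap27, Cideb to Napg (r = 0.86), Armc5 and Colgalt1, and Plin to Map7d1 (r = 0.753), Twsg1 and Cd24a. Over 17894 genes in IAT they were Anxa2 (r = 0.967), 4931406C07Rik and Abhd15 for Cidec, Nedd4l (r = 0.975), Pex13 and Rps19bp1 for Adfp, and Sparc (r = 0.904), Sgce and Rbp4 for S3-12. Cidea was closest to Agpat3 (r = 0.926), Pdha1 and 4930519F09Rik, Plin to Prkar2b (r = 0.908), Gtf3c4 and Fgfrl1, and Cideb to Adam4 (r = 0.837), Zbtb3 and Zfp790. With group means removed, r with Cidea fell to 0.686 for Agpat3, 0.456 for Pdha1 and 0.425 for 4930519F09Rik, and Cidec and Anxa2 had 0.917. Plin in liver and Cideb in IAT were near background on most arrays, so the genes closest to them are uncertain. For Plin in liver, r with Map7d1 and Twsg1 was 0.561 and 0.516 without the 2 mice farthest from its median.

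The remaining perilipins split by tissue. Plin3, a perilipin that moves from the cytosol to droplets, was 0.14 ± 0.15 (SD, n = 6, adjusted p = 0.0267) in liver at 280 µmol/kg RSG and 0.61 ± 0.08 (adjusted p = 7.51e-12) at that dose of the S compound. Plin5, which links droplets to mitochondria in tissues that burn fat, was 0.00 and -0.01 there, neither called. In IAT Plin5 rose by 1.20 ± 0.62 (adjusted p = 2.47e-09) and 1.65 ± 0.34 (adjusted p = 1.32e-12), in 6 of 6 mice each, while Plin3 was -0.15 ± 0.09 (adjusted p = 0.00183) and -0.07 ± 0.15 (adjusted p = 0.0998).

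Genes that form droplets and store triglyceride were mostly above the pool in liver. Of 13 tested at 280 µmol/kg, 11 were higher and 0 lower with RSG (median 0.81) and 12 higher and 1 lower with the S compound (median 0.71), where 51.9% and 66.9% of all sequences were called and their median was -0.03 and -0.05. Fitm1, a droplet-forming protein akin to Fitm2, was 0.88 ± 0.21 and 1.03 ± 0.15 in liver. In IAT 9 were higher and 2 lower with each compound (medians 0.56 and 0.69, against 0.04 and 0.06 over all sequences, of which 67% and 74.7% were called). Gpd1, which makes the glycerol backbone of triglyceride, was 1.89 ± 0.51 and 2.05 ± 0.08 there.

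Of the genes listed under lipolysis, 8 of 9 tested were higher in liver with 280 µmol/kg RSG. With the S compound 6 were higher and 1 lower. Medians were 0.74 and 1.02, where 51.9% and 66.9% of all sequences were called. Lpl, lipoprotein lipase, is on this list although it does not act at the droplet, and rose in liver by 2.80 ± 0.53 and 4.20 ± 0.16. In IAT 7 of 10 were higher with RSG and 8 with the S compound (medians 0.57 and 0.63), with none lower, against 67% and 74.7% of all sequences. Abhd5, the coactivator of the main triglyceride lipase that perilipin 1 holds back, was 1.51 ± 0.18 and 1.61 ± 0.13 there. Among 18 other droplet-bound proteins tested in liver 8 were higher and 4 lower with each compound, against the same 51.9% and 66.9%, with Pcyt1a, an enzyme of phosphatidylcholine synthesis, at -0.41 ± 0.07 and -0.38 ± 0.11. Among 17 in IAT 4 were higher and 6 lower with RSG and 5 and 7 with the S compound, against 67% and 74.7%, with Aup1 at 0.32 ± 0.17 and 0.40 ± 0.07.

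Of 10 transcription factors and coactivators of these genes, 2 were higher and 5 lower in liver with 280 µmol/kg RSG, and 1 higher and 7 lower with the S compound, where 51.9% and 66.9% of all sequences were called. Rxra, the partner of PPARγ, was -0.44 ± 0.17 and -0.71 ± 0.05. In IAT 7 were higher and 1 lower with each compound, against 67% and 74.7% of all sequences, and Ppara, the fatty acid sensor of tissues that oxidise fat, was 1.56 ± 0.27 and 1.62 ± 0.22.

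Adipocyte markers were examined because fat cells carry the same droplet proteins. In liver 7 of 10 tested white adipocyte markers were higher and 1 lower at 280 µmol/kg RSG, and 4 higher and 3 lower with the S compound, with medians over the list of 1.08 and -0.11, where 51.9% and 66.9% of all sequences were called. Their mean log2 ratio per mouse ran from 1.15 to 2.14 and from 1.18 to 1.98, so with the S compound the mean rested on a few genes of large ratio. Cfd, the serine protease adipsin, was 6.75 ± 0.10 and 4.99 ± 0.62, and Fabp4, the adipocyte fatty acid carrier, 3.71 ± 1.21 and 5.60 ± 0.37. Of the defining markers, Lep was well above background on 0 of 72 liver arrays in either channel, and Adipoq on 27 in the mouse channel and 63 in the pool, at -0.52 ± 0.64 and -0.52 ± 1.00 (adjusted p = 0.114 and 0.0964).

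In IAT, brown adipocyte markers rose beside Cidea: all 10 were higher at 280 µmol/kg of each compound, with medians of 1.68 and 1.76, where 67% and 74.7% of all sequences were called. Ucp1, the uncoupling protein of brown fat, was 3.27 ± 0.44 and 3.36 ± 0.21, and Elovl3, an elongase of brown fat, 2.88 ± 0.48 and 3.26 ± 0.11. White adipocyte markers were 6 of 14 higher and 4 lower with RSG and 7 and 4 with the S compound. Markers of other cells fell there: 17 and 20 of 20 skeletal muscle markers, 10 and 14 of 18 epithelial markers, 9 and 12 of 14 macrophage markers and 7 and 8 of 10 endothelial markers, for RSG and the S compound. The mean of the muscle list ran from -3.51 to 0.45 over the RSG mice and from -3.94 to -1.69 over the S compound mice, and that of the epithelial list from -2.84 to -0.11 and from -3.09 to -0.37. Of 15 hepatocyte markers tested in IAT 4 were higher and 3 lower with RSG and 3 higher and 5 lower with the S compound, with medians of 0.16 and -0.09, and their mean ran from -0.79 to 1.00 and from -1.28 to 0.46 over the mice. Krt8, a keratin of glandular epithelium, was -3.50 ± 0.60 and -3.78 ± 0.46. What these lists contribute to the member values was not tested.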

How the data were processed

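RNA of 84 samples was measured on 168 two-colour Agilent whole mouse genome arrays (60-base probes, positions in build mm8). Per the labels and the file headers, the authors extracted the scans with Agilent Feature Extraction 9.5, with a fitted background surface and lowess dye normalization. The deposited log10 ratios (Cy5 over Cy3) and processed signal intensity of each channel were used, together with spot flags as deposited. A table of the whole series, from the authors, also holds log10 ratios and served as an alternative. No column of other samples was found (0 columns left out).

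Control and outlier spots were removed, spots of 1 sequence averaged, ratios turned to mouse over pool, converted to log2 and averaged over the dye pair. The dye of the mouse on each array was taken from the name the authors gave the scan and checked on the values: the turned ratios of a dye pair correlated between 0.632 and 0.944. A sequence was tested when the mouse channel of any group, or the pool over the tissue, was well above background in 50% of arrays or more. The 36 mice of a tissue entered 1 fit (limma 3.58.1 in R 4.3.3, lmFit and eBayes, Benjamini-Hochberg adjustment over all sequences tested, called below 0.05, 95% intervals), with both tissues together for the tissue comparisons. This gave 24 comparisons: 12 against the pool, 6 of RSG with the S compound, 4 of dose and 2 of tissue. The fits were tested on simulated data. The number of arrays, and not a read depth, limits the precision, and the signal over background had a median of 1.72 in liver and 3.06 in IAT. Replicates of a group are separate animals per the labels.

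The members, pathway lists and marker lists were chosen with earlier results of these data known. Besides the members and the other perilipins Plin3 and Plin5, the genes named are those of each list with the smallest p at 280 µmol/kg RSG in each tissue and, per member and tissue, the 3 genes with the highest correlation. Fabp4, Adipoq, Lep and Alb were added as defining markers, after their values were seen. Of 24135 sequences with a RefSeq accession, 23374 matched the RefSeq gene table, and symbols were updated from it, while the members keep their names on the array. Whether a probe lies in an exon or UTR was not analysed here. Alternatives were normexp background correction (offset 50) with loess, the authors' table, no and a stricter filter, median centring, each dye orientation alone, only the groups compared, scan day or replicate number as a block, the methods' thresholds (p 0.001 and 1.3-fold), and leaving out each mouse. Leaving out the mice that stand apart, and the table without a column that follows no array of its own, were added after seeing the data. Plots used Python 3.11.15 and matplotlib 3.10.9.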

Additional observations from a re-analysis of the deposited data

Results flagged for a closer look

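Among 72 sets of 6 mice (6 genes in 12 groups), 12 held a mouse whose gap to its nearest neighbour was a larger part of the range of the set than Dixon's 95% critical value for 6 samples, which chance passes in about 1 of 20 sets. The causes were not tested. IAT RSG 280 replicate 2 was low for Cidec (0.29) and Adfp (-0.014), and Liver RSG 280 replicate 2 for Adfp (-0.13). Both belong to the mice that stood apart over all sequences. IAT RSG 28 replicate 5, another of these, was low for S3-12 (-1.35) and Plin (-0.73), and IAT S 28 replicate 4 for S3-12 (-0.72). Liver S 84 replicate 1 was low for Cidec (2.66) and Adfp (0.32). IAT S 28 replicate 5 was high for Cidea (1.98). Plin was also low in Liver RSG 84 replicate 4 (-0.66), where it was near background, in IAT RSG 84 replicate 3 (-0.27) and in IAT S 84 replicate 5 (-0.17).

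Of 12 tests of IAT against liver at 280 µmol/kg, 5 showed different ratios to the pool in the tissues. For RSG these were S3-12 (-3.85, adjusted p = 1.32e-20) and Cidec (-2.52, adjusted p = 2.56e-17), and for the S compound S3-12 (-2.69, adjusted p = 1.03e-14), Cidec (-1.62, adjusted p = 8.69e-11) and Cidea (-1.17, adjusted p = 0.000407). Each compares log2 ratios to separate pools of 6 untreated mice, which differed in level, and Cidec was saturated on many IAT arrays. In the same comparisons 61.5% of all sequences were called for RSG and 73.6% for the S compound, a larger share than among the members.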

How the results depend on the processing

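Counts of members called against the pool changed by no more than 1.5 times under the alternatives run. In the other comparisons the counts that moved were the following, and the causes were not tested. With scan day as a block, RSG against the S compound gave 0 members in liver at 28, 84 and 280 µmol/kg (from 1, 1 and 2). It gave 0 in IAT at 84 (from 1). Over all sequences this block called 0, 0 and 3057 of 25252 in liver and 0 of 30792 in IAT. Where no sequence was called, the loss is not particular to the members. For 280 against 28 µmol/kg the block gave 1 in liver for the S compound (from 3) and 0 in IAT for RSG (from 3). There 2482 of 25252 and 1962 of 30792 sequences were called. With scan day as a random block, RSG against the S compound in IAT at 280 gave 3 (from 0), where 3556 of 30792 sequences were called. With only the groups compared in the fit, fewer mice set the spread. Liver RSG against the S compound at 28 then gave 3, liver 280 against 28 for the S compound 1 and IAT 280 against 28 for RSG 1. There 494 of 25252, 6922 of 25252 and 4541 of 30792 sequences were called. The methods' thresholds gave 1 for liver 280 against 28 of the S compound, and median centring 5 for IAT 280 against 28 of RSG. Without the mice that stood apart, liver RSG against the S compound gave 2 at 28 and 2 at 84 µmol/kg, although none of these mice was in the groups compared there. Leaving out each mouse, counts ran from 1 to 3 for liver 280 against 28 of the S compound, from 3 to 6 for IAT 280 against 28 of RSG and from 0 to 2 for IAT RSG against the S compound at 280. Over the 1296 member values with 1 mouse left out, 20 lost and 17 gained their call, and no called value changed sign.

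With normexp correction and loess, the difference of Cideb between IAT and liver turned from -0.34 to 0.19 for RSG (adjusted p = 0.0117) and from -0.15 to 0.24 for the S compound (adjusted p = 0.00124), and Cideb is near background in IAT. Dye orientations taken alone changed 9 and 6 of 144 member calls, most of them of Plin, and the authors' table changed 1. In that table the column of IAT S 84 replicate 6 followed none of its arrays (r = -0.01), and leaving it out changed the same 1 call. The columns of IAT S 280 replicates 4, 5 and 6 followed the arrays of replicates 6, 4 and 5 best (r with their own 0.901, 0.958 and 0.918), and replicate numbers here are those of the scanner files' samples. The stricter filter changed none of the 118 member values it kept. Day as a block could be fitted for 19 of 24 comparisons.

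With replicate number as a block, all 24 counts stayed within 1.5 times, and 2 calls were gained, Cideb in Liver S 84 (-0.14, adjusted p = 0.0122) and Plin in IAT RSG 280 against 28 (0.26, adjusted p = 0.0455). Same-numbered mice of different groups correlated in their deviations with a median r of 0.102 in liver (-0.29 to 0.516) and 0.13 in IAT (-0.52 to 0.687). Liver and IAT samples of the same group and number correlated between -0.15 and 0.369, and 23 of 36 were closest to their own number, a hint from the data of shared animals. The labels do not say that the number marks an animal, so the samples are treated as sharing only a number. Plin in liver and Cideb in IAT are limited by signal near background.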

Other observations

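The technical repeats of liver RNA at 28 µmol/kg showed how far array noise reached for each gene. For Cidea the SD over 6 repeats was 0.05 for either compound, next to 0.24 between RSG mice and 0.47 between S compound mice. For S3-12 it was 0.09 and 0.02, next to 0.47 and 0.44, and for Adfp 0.01 and 0.09, next to 0.12 and 0.19. For Cidec it was 0.08 and 0.03, next to 0.29 and 0.09. Cideb differed, with 0.07 over the RSG repeats and 0.06 between the RSG mice. The mean of the repeats lay outside the range of the 6 mice of the group for Adfp with both compounds, at 1.19 against 1.49 to 1.85 for RSG and at 0.68 against 1.06 to 1.62 for the S compound. For Cidea with RSG it was 3.60, against mice from 3.80 to 4.40. The labels do not say which animal's RNA was repeated.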
